A study of Homo sapiens with 5 samples.

Results

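Rb regions that appeared with abemaciclib and overlapped promoters of non-coding genes, but no promoter of a coding gene, numbered 506 of 14810 Rb regions. Overlapping Rb peaks from the 4 lists (1 bp or more) were joined into regions on chromosomes 1 to 22 and X. Members had a peak in each abemaciclib library, none in the DMSO libraries, and touched the promoter of a non-coding gene but no promoter of a protein-coding gene. As promoter counted the 2000 bp before and the 500 bp after a transcript's start in GENCODE 44, for every annotated transcript. The members were therefore selected on their measured peaks, and peak presence, fragment pileup, rank, fold, q-value and width are given below as descriptions without a test.

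The cells were ZR-75-1, a widely used line of breast cancer that carries hormone receptors, and their genotype was labelled Parent. Cells received abemaciclib at 500 nM, or an equal volume of the solvent DMSO, for 4 days according to the labels. CUT&RUN, in which an antibody guides a nuclease to a chromatin protein so that the DNA around it is released and sequenced, was run with an Rb antibody in 2 libraries per treatment and with IgG2a as the negative control in 1 library of DMSO-treated cells. All 5 libraries are of 1 cell line, and the peak lists hold no expression values, so neither the identity of the cells nor the activity of any gene named here was measured.

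Rb is the retinoblastoma protein, which binds E2F transcription factors and, through them, promoters of cell cycle genes. Phosphorylation by CDK4 and CDK6 releases it, and abemaciclib inhibits these kinases. Non-coding genes make RNAs that are not translated: long non-coding RNAs (lncRNAs), the small RNAs of splicing, ribosomes and gene silencing, and the transcripts of some pseudogenes, which are altered copies of coding genes. Many lncRNA promoters are built like coding promoters, with CpG-rich sequence, and some lncRNAs serve mainly as carriers of microRNAs or snoRNAs.

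The DNA at the summits of a few members shows what these sites look like. Each line gives 200 bases of GRCh38 around the summit in abemaciclib replicate 1, 5′ to 3′ on the plus strand. Capitals mark a match on either strand to an E2F pattern, either TTCCCGC with its variant TTCGCGC, or else TTGCCGC with its variant TTGGCGC. The pair of C1orf220 and DLEU2 is shown because they are the strongest members, and LINC00511 because it is known from breast cancer; none of these 3 windows holds the pattern.
C1orf220 (chr1:178542975-178543174): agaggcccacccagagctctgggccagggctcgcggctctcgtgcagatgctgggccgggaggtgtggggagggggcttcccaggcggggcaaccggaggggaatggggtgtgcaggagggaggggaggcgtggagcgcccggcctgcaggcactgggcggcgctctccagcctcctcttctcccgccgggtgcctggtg
DLEU2 (chr13:50124293-50124492): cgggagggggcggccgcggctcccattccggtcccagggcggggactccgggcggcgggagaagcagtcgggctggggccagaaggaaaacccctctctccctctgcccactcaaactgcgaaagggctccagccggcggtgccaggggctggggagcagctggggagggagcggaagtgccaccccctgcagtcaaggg
LINC00511 (chr17:72592576-72592775): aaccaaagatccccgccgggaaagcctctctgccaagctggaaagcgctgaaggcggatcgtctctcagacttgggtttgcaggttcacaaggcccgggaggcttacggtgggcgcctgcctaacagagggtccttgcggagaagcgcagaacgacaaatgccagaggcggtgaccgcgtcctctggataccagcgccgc
The next lines are the 2 strongest members that hold the E2F pattern, followed by 4 with it at named lncRNA and microRNA genes.
LINC01623 (chr6:28866639-28866838): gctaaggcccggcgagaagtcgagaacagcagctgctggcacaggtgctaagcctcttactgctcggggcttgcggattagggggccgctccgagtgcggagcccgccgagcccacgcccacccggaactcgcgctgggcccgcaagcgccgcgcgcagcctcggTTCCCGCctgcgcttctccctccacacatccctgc
MIR200CHG (chr12:6961896-6962095): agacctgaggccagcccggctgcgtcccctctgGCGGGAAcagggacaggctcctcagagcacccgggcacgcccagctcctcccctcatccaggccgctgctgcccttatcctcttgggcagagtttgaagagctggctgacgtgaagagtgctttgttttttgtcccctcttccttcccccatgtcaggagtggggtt
MIR762HG (chr16:30875141-30875340): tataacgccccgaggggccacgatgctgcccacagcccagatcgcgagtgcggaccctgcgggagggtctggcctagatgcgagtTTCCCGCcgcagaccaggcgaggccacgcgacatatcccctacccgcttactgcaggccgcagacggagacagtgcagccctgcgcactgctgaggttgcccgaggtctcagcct
LINC-PINT (chr7:131105674-131105873): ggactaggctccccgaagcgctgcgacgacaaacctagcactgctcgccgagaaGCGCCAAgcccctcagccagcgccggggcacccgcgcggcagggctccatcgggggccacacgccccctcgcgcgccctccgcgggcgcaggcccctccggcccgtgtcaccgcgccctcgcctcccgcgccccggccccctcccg
MIR193BHG (chr16:14302496-14302695): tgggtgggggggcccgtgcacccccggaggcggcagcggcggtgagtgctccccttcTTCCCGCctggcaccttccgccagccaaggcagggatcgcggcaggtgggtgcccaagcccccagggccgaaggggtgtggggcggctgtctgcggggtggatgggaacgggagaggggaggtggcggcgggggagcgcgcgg
MIR193A (chr17:31558950-31559149): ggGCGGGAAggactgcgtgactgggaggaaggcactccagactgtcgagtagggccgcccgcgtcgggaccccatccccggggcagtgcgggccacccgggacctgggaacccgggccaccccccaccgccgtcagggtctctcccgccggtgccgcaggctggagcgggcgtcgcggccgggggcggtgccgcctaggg
Each window printed here held 1 match or none. Across the 506 members, 76 held at least 1 match and 7 held 2 or more. A match only describes these letters, and a window without one says nothing of whether an E2F protein is there.

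Regions at non-coding promoters outside coding ones were sorted by the libraries that held a peak. Of 917 such regions, 506 were gained, which is 55.2%, against 58.1% of all merged regions; these shares belong to the contrast that chose the members and are given as background. Another 45 regions had a peak in all 4 libraries, 5 in both abemaciclib libraries and DMSO replicate 1, and 54 in both abemaciclib libraries and DMSO replicate 2. Abemaciclib replicate 1 alone had a peak at 225 regions and replicate 2 alone at 75. No region had peaks in both DMSO libraries and in neither abemaciclib library. That pattern was at 0 of 11612 coding regions and at 1 of 2281 regions outside promoters. The coding class had proportionally more regions in all 4 libraries, at 8.58% against 4.91%. The 506 members made up 5.88% of the 8607 gained regions, with a 95% Wilson interval from 5.40% to 6.40%, beside 85.1% at coding promoters and 9.05% outside all promoters. Intervals here cover counting error only.

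**Figure D1:**
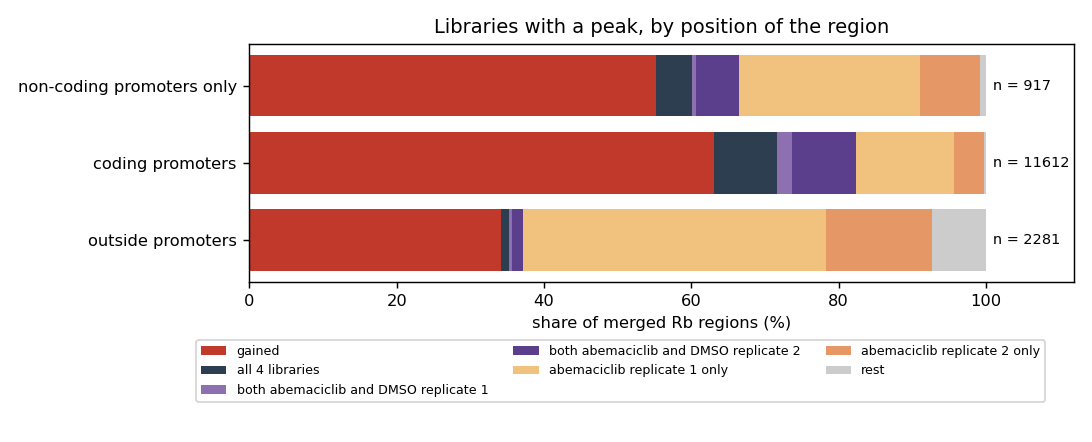
Share of merged Rb regions (x axis, %) by the libraries that held a peak, for regions at non-coding promoters only (917), at coding promoters (11612) and outside promoters (2281). The gained segment is 55.2% of the non-coding bar, 63.1% of the coding bar and 34.2% of the bar outside promoters.

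With DMSO, replicate 1 had 1438 listed Rb peaks and replicate 2 had 2582. Abemaciclib gave 13960 and 12234, and the IgG2a control 589. Total reads were not used here. The local background that the peak caller assigned to quiet sequence, which scales with depth, was 0.649 and 0.677 fragments in DMSO and 0.656 and 0.521 in abemaciclib. The part of depth in the difference in peak numbers was not tested. The weakest peak of each whole list had a −log10 p of 5.10 and 4.76 in DMSO replicates 1 and 2 and of 3.74 and 3.81 with abemaciclib, so a DMSO site needed a stronger signal to be listed. After scaling by the lowest background, the median pileup needed for a listed peak at the members was 8 fragments in DMSO replicate 1 and 7 in replicate 2, if the control background there was the same. The pileup of abemaciclib replicate 1, scaled the same way, reached that limit at 478 of 506 members for DMSO replicate 1 and at 495 for replicate 2. It reached 2 times the limit at 285 and 320 members and 3 times at 145 and 165. At the remaining weak members a missing DMSO peak therefore bounds the difference between treatments only loosely. When every Rb list was shortened to the length of the smallest, keeping its strongest peaks, 7 regions met the rule, so the number of members rests on the longer abemaciclib lists. With the 5′ end of each gene in place of every transcript start, 816 did.

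Pileup, the number of DNA fragments that overlap the summit, was a moderate 17 fragments in abemaciclib replicate 1 and 13 in replicate 2 at the median member. The values ran from 5 to 124 in replicate 1 and from 5 to 88 in replicate 2. At 46 members both libraries had at least 30 fragments, and at 51 both had fewer than 10. Ordered by p-value within each full list, the median member stood at rank 7823 of 13960 in replicate 1 and at 7744 of 12234 in replicate 2, and only 2 members were in the top 10% of both lists. Gained coding promoters had medians of 22 and 16 fragments and gained regions outside promoters 15 and 11, so the members lay between these classes in both libraries.

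Both abemaciclib libraries ordered the members alike. Replicate 1 had the higher pileup at 405 members, replicate 2 at 77, and they were equal at 24. The median ratio of replicate 1 to replicate 2 was 1.29, beside a ratio of 1.26 between their lowest backgrounds. Across the 506 regions, Pearson's r of log2 pileup was 0.858 and Spearman's rho 0.835; the regions share their libraries and are not replicates, so these values are descriptive. Summits of the replicates lay within 100 bp of each other at 325 members and within 200 bp at 433.

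**Figure D2:**
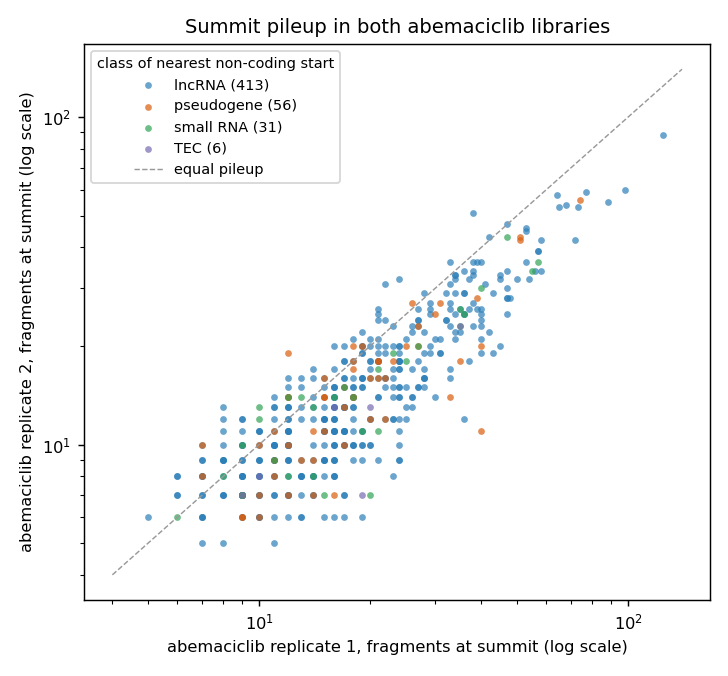
Summit pileup of each of the 506 members in abemaciclib replicate 1 (x axis, fragments, log scale) and replicate 2 (y axis, fragments, log scale), coloured by the class of the nearest non-coding start; the dashed line marks equal pileup. Most points lie below the line, as replicate 1 was higher at 405 members, and the 4 classes overlap.

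The strongest member was at C1orf220, a lncRNA gene inside TEX35, and its summit lay in an intron of TEX35 on the same strand. The region, chr1:178542297-178543510, had 124 fragments in abemaciclib replicate 1 and 88 in replicate 2, over local backgrounds of 1.63 and 1.17. It ranked 489 and 545 in the 2 lists, the best place of any member. DLEU2, the lncRNA that carries miR-15a and miR-16-1, came next. Its region at chr13:50123627-50126505 had 98 and 60 fragments over 2879 bp, the widest of the members, and its summit was 994 bp downstream of a DLEU2 start. A different DLEU2 start, at chr13:50080465-50082962, had 62 and 65 fragments with abemaciclib but also 8 in DMSO replicate 1, so it was not a member.

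Several of the next members stood at gene copies and at genes known only by an identifier. The region at FAM86EP, a FAM86 family copy annotated as a lncRNA, had 88 and 55 fragments and lay 189 kb from the nearest coding start. ENSG00000262587, a transcribed pseudogene on chromosome 16, had 74 and 56 fragments. C19orf48P, a transcribed pseudogene with the small nucleolar RNA gene SNORD88C beside the same region, had 51 and 43. In each of these regions both libraries were well above the median member. Among lncRNAs without a name, ENSG00000260369 had 77 and 59 fragments, ENSG00000266963 had 64 and 58 in an exon of CATSPERG on the opposite strand, and ENSG00000289603 on chromosome 8 had 68 and 54. The ENSG00000266963 summit was 2.45 kb from the nearest CATSPERG start.

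ELDR, a lncRNA downstream of the growth factor receptor gene EGFR, had 65 and 53 fragments at chr7:55254722-55255939, 54.9 kb from the nearest annotated start of an EGFR transcript. LINC00511, a lncRNA studied in breast cancer, had 72 and 42 at chr17:72592228-72593093, with the summit 3 bp upstream of its start. A further LINC00511 start, at chr17:72618028-72618498, was also a member with 20 and 18 fragments. The member at LINC02987, which shares its promoter region with LINC00662, lay 1420 kb from the nearest coding start and had 57 and 39 fragments. LINC01623, about 40.8 kb from TRIM27 on chromosome 6, had 2 members. Their pileups were 58 and 42 at chr6:28865984-28867170, which holds the E2F match printed above, and 39 and 36 at chr6:28863462-28864701. The summit with the E2F match was at −2109 bp from the LINC01623 start, outside the promoter window.

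The best pseudogenes after those were weaker. MFSD14CP, a copy of a transporter gene, had 51 and 42 fragments. AHSA2P, related to the Hsp90 co-chaperone AHSA1, had 30 and 25. FRG1EP, a copy of FRG1, had 39 and 28 and lay 1760 kb from a coding start. In all 3, replicate 1 gave the higher value, as at most members. The region at ENSG00000290928 and SUZ12P1, the latter a pseudogene of the Polycomb subunit gene SUZ12, had 57 and 39 fragments and 1 near-identical copy elsewhere in the genome, so its reads cannot be placed with certainty.

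**Figure D3:**
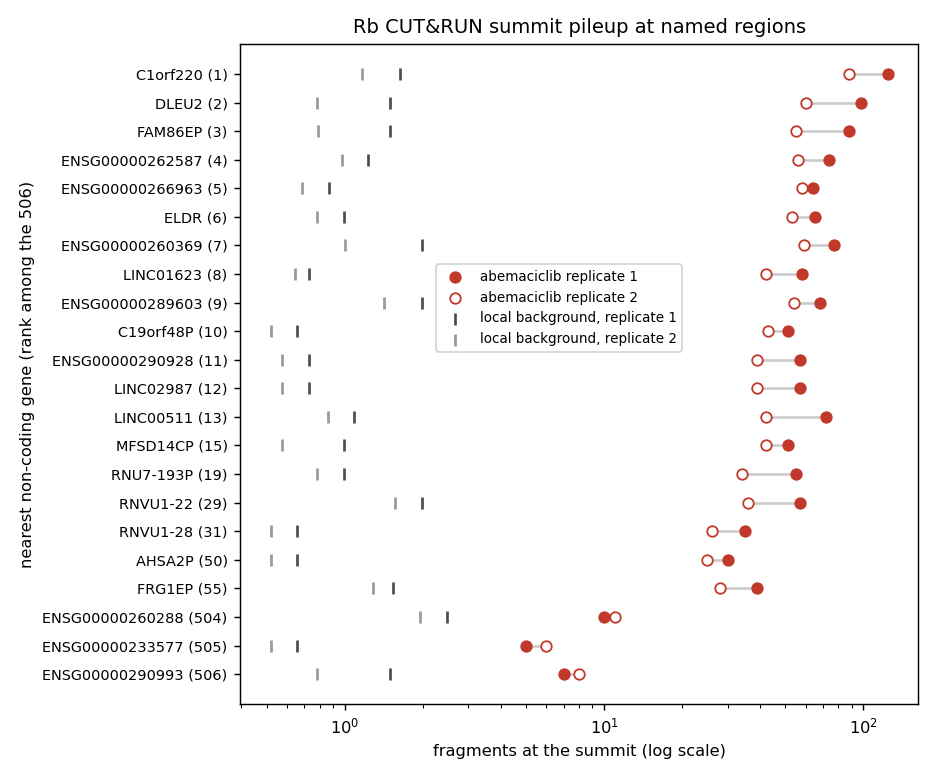
Fragments at the summit (x axis, log scale) for the best-ranked members and for the 3 with the weakest q-value, with the rank among the 506 in brackets; filled and open circles are abemaciclib replicates 1 and 2, and dark and light ticks are the local background in each. The circles fall from 124 and 88 at C1orf220 to 5 and 6 at ENSG00000233577, and no background tick exceeds 2.49.

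Close to the threshold, the member with the least significant q-value was at ENSG00000290993, with 7 and 8 fragments and a −log10 q of 1.36 in the weaker library. ENSG00000233577 followed with 5 and 6 fragments and 1.72, then ENSG00000260288 with 10 and 11 fragments and 1.75. Just outside, 3 regions were not members because of a weak peak in DMSO replicate 2. MIRLET7BHG at chr22:46069655-46072453 had 8 fragments there, with a −log10 q of 1.31, beside 39 and 28 with abemaciclib. LINC00467 had 11 there and 67 and 61 with abemaciclib, and SVIL-AS1 had 6 there and 66 and 66. These 3 were stronger with abemaciclib than most members, so the rule leaves out strong sites that are faintly present in DMSO.

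The 506 regions touched promoters of 717 non-coding genes, which is 1.72% of 41681 annotated. Of lncRNA genes 537 were reached (2.86%), of pseudogenes 107 (0.721%) and of small RNA genes 67 (0.955%). Among the gene names, 344 were bare identifiers, 97 began with LINC and 41 were antisense names ending in AS and a number. The nearest non-coding start belonged to a lncRNA at 413 members, a pseudogene at 56, a small RNA at 31 and a gene awaiting experimental support at 6. Median pileup was 17 and 13 fragments for lncRNAs, 17.5 and 14 for pseudogenes, 17 and 14 for small RNAs and 17.5 and 10.5 for the last 6. Small RNA members stood lower by fold and rank, with a median fold of 6.51 in replicate 1 against 9.02 for lncRNAs, and a median rank of 9664 against 7744.

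Summits gathered at the non-coding starts themselves. The rule required overlap with the window of a start, and the nearest such start was used, so closeness is partly set by the selection. The median distance in either direction was 166 bp, beside 105 bp from the nearest coding start at gained coding promoters. The median summit was 19 bp upstream of the nearest start, and 327 summits (64.6%) were within 250 bp of one. Upstream summits numbered 274 and downstream ones 230, while 32 summits fell outside the window that their region overlapped. Most members were far from coding starts, at a median of 21.4 kb, with 73 at 100 kb or more. The rule itself shuts out coding promoter windows. Gained regions outside promoters, which also overlap no coding window, had a median of 9873 bp. At 95 members, however, a coding start was within 5 kb, and for 68 of them the summit was downstream of it. The rule shuts out 2000 bp before a coding start but only 500 bp after it. It thus leaves more room downstream, and no preference is read from this count. In all, 419 summits lay outside coding genes, 66 in introns and 21 in exons.

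**Figure D4:**
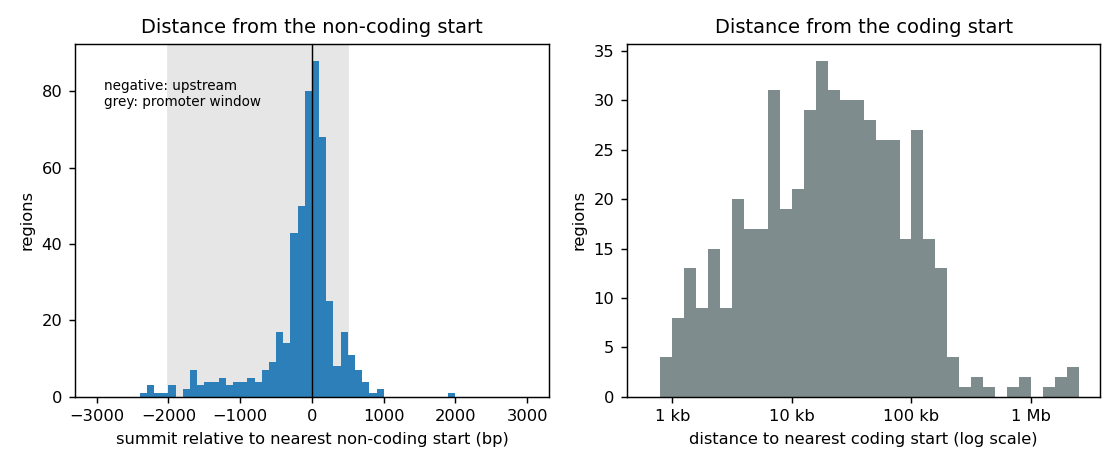
Left, number of members (y axis) by distance of the summit from the nearest non-coding start (x axis, bp, negative upstream), with the promoter window shaded; right, number of members (y axis) by distance from the nearest coding start (x axis, log scale). The left plot peaks at the start, where 327 of 506 summits are within 250 bp, and the right one is broad around a median of 21.4 kb.

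The nearest coding gene's own promoter held a gained region for 227 members (44.9%), a peak in all 4 libraries for 32 and no peak for 182 (36.0%). Over all 19962 coding genes the shares were close to these, at 40.1% gained and 40.7% without a peak, so nothing particular to the members is read from them. Within 5 kb of the coding start, 48 of 95 neighbours were gained and 21 had no peak. These counts use the same peak lists as the rule and carry no test.

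Sequence was not used to choose the members, and here they differed from both neighbouring classes. CpG-island sequence, taken as at least 55% G and C with an observed to expected CpG ratio of at least 0.65 over 500 bp at the summit, was found at 351 members. That is 69.4%, with an interval from 65.2% to 73.2%. Gained coding promoters had it at 86.3% (85.5% to 87.1%), which was 16.9 percentage points more (Fisher's exact test, two-sided, adjusted p = 1.73e-19). Gained regions outside promoters had it at 43.8% (40.3% to 47.3%), which was 25.6 points less (Fisher's exact test, adjusted p = 1.95e-18). Both differences passed under 12 of 13 alternatives, with adjusted p from 3.54e-34 and 6.89e-54 up to 1.00, the last under the alternative that keeps CpG-island regions only and so sets every share alike. Among those that passed, the 400-bp window for patterns leaves the CpG measure unchanged. Adjustment was by Benjamini-Hochberg over 26 tests, of 13 features against the 2 classes. Regions are not replicates, so these tests describe region sets and not the spread between cultures. For comparison, 18.1% of all lncRNA gene starts, 5.83% of pseudogene starts and 53.3% of coding gene starts met the same criteria. Within the members the share fell with rank. In 4 groups of nearly equal size, best-ranked first, it was 75.6%, 76.4%, 69.8% and 55.6%. The classes also differed in strength, with a median replicate 1 rank of 6374 at gained coding promoters, 7823 at members and 8862 outside promoters. The part of peak strength in the CpG-island differences was not tested.

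The E2F pattern was found at 76 members, or 15.0%, with an interval from 12.2% to 18.4%. The share was 17.3% at gained coding promoters (Fisher's exact test, adjusted p = 0.410) and 18.7% outside promoters (adjusted p = 0.251), so neither difference passed the test. It did not pass under any of 13 alternatives either (adjusted p from 0.323 to 1.00 and from 0.178 to 0.782). Among these, the looser CpG-island criteria leave the E2F count unchanged. Of all gene starts, 5.11% for lncRNAs, 3.49% for pseudogenes, 1.74% for small RNAs and 11.5% for coding genes held the pattern in a window of the same length. Of the 76 members with it, 55 were also CpG-island sequence. With the members split by rank into 4 groups of nearly equal size, it was at 17.3% in the best-ranked group and at 14.3% in the last.

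The SP/KLF pattern GGGCGG, the GC box of many housekeeping promoters, was at 54.0% of members. Coding promoters had 61.7% (Fisher's exact test, adjusted p = 0.00435) and regions outside promoters 43.6% (adjusted p = 0.00275). Among CpG-island regions alone the shares were 61.3%, 64.9% and 61.3%, and neither difference passed Fisher's exact test there (adjusted p = 0.626 and 1.00). Over the 13 alternatives the adjusted p ran from 4.06e-08 to 0.626 against coding promoters and from 1.27e-12 to 1.00 against regions outside promoters. The share of members with it was 61.4% in the best-ranked of the 4 groups and 44.4% in the last.

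**Figure D5:**
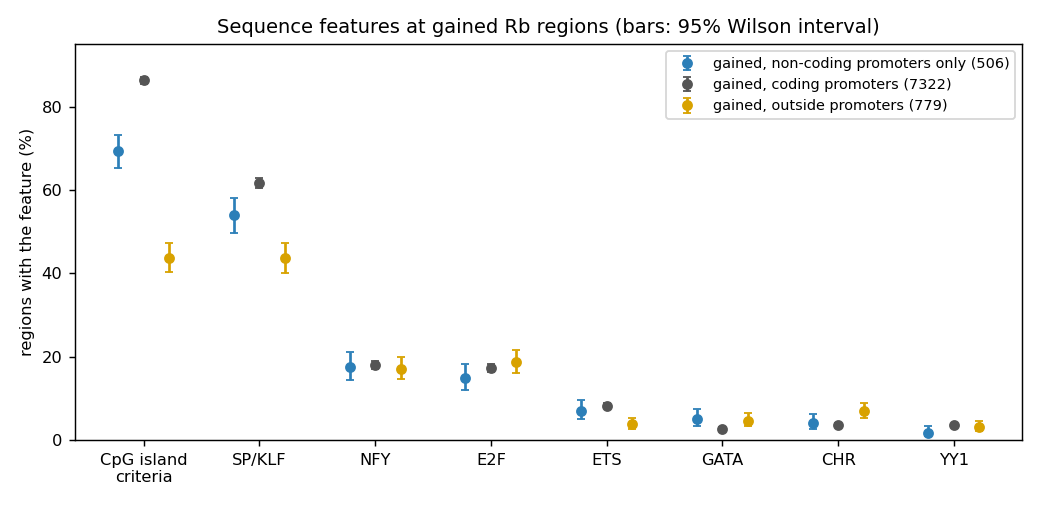
Share of gained regions (y axis, %) with CpG-island sequence or with each of 7 patterns (x axis), for the 506 members, 7322 coding promoters and 779 regions outside promoters; bars are 95% Wilson intervals. The members lie between the other classes for CpG-island sequence (69.4%) and SP/KLF (54.0%), and the intervals overlap for NFY and E2F.

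Other features lay near the threshold. AGATAA or TGATAA, the core of sites for GATA factors, was at 26 members, or 5.14%, against 2.85% of coding promoters (Fisher's exact test, adjusted p = 0.0341, and 0.000156 to 0.0911 over 13 alternatives). Outside promoters it was at 4.75%, which did not pass Fisher's exact test (adjusted p = 0.936), and 14.5% of all lncRNA gene starts held it. CCGGAAG, bound by ETS factors, was at 7.11%, against 3.85% outside promoters (Fisher's exact test, adjusted p = 0.0499, and 0.000176 to 0.520 over the alternatives). Coding promoters had it at 8.26%, which did not pass Fisher's exact test (adjusted p = 0.615). An IgG2a peak overlapped 2 members and 1 of 7322 coding promoters (Fisher's exact test, adjusted p = 0.0499, and 0.0346 to 1.00). Outside promoters 1 of 779 regions overlapped such a peak, which did not pass Fisher's exact test (adjusted p = 0.735). Both members lie in the 5S RNA group described below, so they are not independent of each other. IgG controls were used in calling the Rb peaks, so this overlap is not independent of the selection. The alternative without IgG2a-overlapping peaks leaves no overlap to compare. CCAAT, the NFY box, was at 17.6% of members, 18.1% of coding promoters and 17.2% outside promoters, and did not pass Fisher's exact test in either comparison (adjusted p = 0.954 in both). The patterns were read on both strands and can share bases, as CCAAT does with TTGGCGC when read on the other strand. The rest, TTTGAA (CHR), TGACGTCA (CRE), CGCATGCG (NRF1), AGATGGC (YY1), TGACTCA or TGAGTCA (AP-1) and TGTTTAC (forkhead), also did not pass. Under the alternatives, AP-1 and YY1 passed against coding promoters in 2 of 13 and forkhead in 1, and CHR, forkhead and GATA passed against regions outside promoters in 1 each.

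Small RNA genes included families repeated across the genome. Variant U1 snRNA genes, relatives of the splicing RNA U1, had members on chromosome 1. RNVU1-22 had 57 and 36 fragments at chr1:148262973-148264037, with no near-identical copy. RNVU1-28 had 35 and 26 and 1 such copy. Together with RNVU1-2A it belonged to a group of 4 members within 14.8 kb. RNU7-193P, annotated as an snRNA gene and named for the U7 RNA that trims histone transcripts, had 55 and 34 fragments, but the summit was at −2339 bp from its start, upstream of it, in an intron of ZNF487. Copies with at least 95% identity over 190 of the 200 summit bases existed for 72 members, where reads may belong to another copy.

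The 5S ribosomal RNA genes of chromosome 1, transcribed by RNA polymerase III, formed a group of 5 members within 27.3 kb. Among them RNA5S12 had 47 and 43 fragments and RNA5S6 had 40 and 30. These were the members that overlapped an IgG2a peak. Their local backgrounds were 14.9 and 11.3 at RNA5S12 and 12.4 and 8.18 at RNA5S6, against medians of 0.995 and 0.779 over the members, and their folds over background were low, at 3.01 and 3.58 for RNA5S12. The part of the IgG2a signal in their Rb peaks was not tested. Near-identical copies elsewhere in the genome numbered 3 for RNA5S12, 17 for a further RNA5S6 member and 11 for RNA5S11, so reads there may belong to another copy. The RNA5S6 region with 40 and 30 fragments had none. Without regions that overlap an IgG2a peak, 504 members remained.

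MicroRNA genes were near 23 members, with 30 genes in all. The annotated start of such a gene is the end of its hairpin and not the start of the long transcript it is cut from, so these members are near microRNAs rather than at a known promoter of theirs. RefSeq gave 48 mature sequences for the 30 genes. They are shown for the genes that share a seed (bases 2 to 8, in capitals), because microRNAs with the same seed have overlapping sets of targets, and for the pair of miR-141 and miR-200c.
hsa-miR-106a-5p: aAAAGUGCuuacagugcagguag
hsa-miR-20b-5p: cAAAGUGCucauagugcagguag
hsa-miR-132-3p: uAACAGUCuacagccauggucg
hsa-miR-212-3p: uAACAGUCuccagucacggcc
hsa-miR-193a-3p: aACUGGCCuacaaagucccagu
hsa-miR-193b-3p: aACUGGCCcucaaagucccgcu
hsa-miR-130b-3p: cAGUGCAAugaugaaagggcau
hsa-miR-301b-3p: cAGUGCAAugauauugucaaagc
hsa-miR-141-3p: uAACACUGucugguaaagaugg
hsa-miR-200c-3p: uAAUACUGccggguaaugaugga
MIR200C and MIR141, which keep epithelial cells epithelial by repressing ZEB1 and ZEB2, lie beside the region chr12:6960898-6963595 at MIR200CHG. It had 73 and 53 fragments, the most of these 23 members, and its summit was 1703 bp upstream of the MIR200C hairpin. Its CpG ratio was 0.298, so it did not meet the CpG-island criteria, but it held the E2F match GCGGGAA printed above, which is TTCCCGC on the other strand. The nearest coding start, that of the phosphatase gene PTPN6, was 2.42 kb away, and its promoter had a peak in all 4 libraries.

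The pairs with a shared seed came from 5 regions. MIR193A and MIR193B lie on different chromosomes, and both regions held the E2F pattern. The MIR193A region had 35 and 23 fragments with the summit 946 bp upstream, and the MIR193B region, at MIR193BHG, had 18 and 18. MIR132 and MIR212 are neighbours and shared a region with 27 and 20 fragments, where the summit lay between 155 bp downstream and 217 bp upstream of the hairpin starts. MIR130B and MIR301B are neighbours as well, with 22 and 12 fragments. The MIR106A group on chromosome X, whose region also held the E2F pattern, with MIR18B and MIR20B, is a relative of the growth-promoting MIR17HG cluster, and its region had 9 fragments in each library. MIRLET7E and MIR99B had 6 in each, near the lowest values of all members.

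Of 121 well-known non-coding genes, 25 were at members, beside 717 of all 41681 non-coding genes (1.72%) and 2.86% of lncRNA genes. A further 20 were at gained regions that also touched a coding promoter, 8 had a peak in all 4 libraries, 6 in both abemaciclib and 1 DMSO library, 10 in 1 abemaciclib library only and 52 had no peak. Another 6 symbols of the list had no match in the annotation. The list was chosen with results of these data known, so the counts are a description. GAS5, a growth-arrest lncRNA and snoRNA host, was in the group with 4 peaks, with 11 and 14 fragments in DMSO and 146 and 106 with abemaciclib. MALAT1 and NEAT1, abundant nuclear lncRNAs of many tissues, and H19, an imprinted fetal RNA, had no peak.

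Among 28 nuclear, imprinted and other classic lncRNAs, 5 were at members. KCNQ1OT1, the antisense RNA that silences neighbouring genes in cis on the paternal chromosome, had 16 and 12 fragments, with the summit 185 bp upstream of its start in an intron of KCNQ1. HOTAIR, from the HOXC cluster and known for its ties to Polycomb, had 23 and 14, in an intron of HOXC11. Its summit was 1.57 kb from a HOXC11 start, and the HOXC11 promoter also held a gained region. FIRRE, an X-linked RNA of nuclear organisation, had the most at 29 and 19. LINC-PINT, a p53-induced RNA, had 13 and 9, and MIAT had 12 and 7 in a region whose nearest start was that of the pseudogene ISCA2P1. HOTAIR, LINC-PINT and MIAT held the E2F pattern, and KCNQ1OT1 and FIRRE did not.

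Genes that carry snoRNAs, which guide the modification of ribosomal RNA, were at members in 7 of 25 cases. The strongest was SNHG12 with 24 and 18 fragments. SNHG17 had 17 and 20, SNHG30 had 16 and 13, and SNHG21 had 16 and 11. SNHG16 had 13 in each, SNHG7 had 13 and 8, and SNHG15 had 9 and 8. None of these 7 windows held the E2F pattern, and apart from SNHG21 and SNHG30 they met the CpG-island criteria. Apart from SNHG12 and SNHG17, all were at or below the median member in both libraries. The SNHG16 region had its nearest start at ENSG00000267546, on the opposite strand.

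MicroRNA host genes were at members in 10 of 31 cases, and they spanned the range of the class. DLEU2, MIR200CHG and MIR762HG were the strong ones, the last with 53 and 36 fragments at chr16:30874753-30875728. MIR29B2CHG, host of miR-29 genes that target collagens and DNA methyltransferases, had 22 and 16. MIR9-1HG had 20 and 18 at the region beside the MIR9-1 hairpin and 45 and 32 at a start further upstream. MIR193BHG, given above, was in the middle. MIR31HG had 16 and 10, and MIR23AHG had 15 and 8. MIR210HG, host of the hypoxia-induced miR-210, had 11 and 12. MIRLET7BHG had 7 and 8 at chr22:46053543-46054211, apart from the DMSO-positive start of the same gene described above, and the nearest start there was that of PRR34-AS1. Of the 10, MIR31HG, MIR193BHG, MIR200CHG and MIR762HG held the E2F pattern.

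The breast cancer and cell cycle lists were shorter. Of 21 breast cancer and luminal lncRNAs, 2 were at members, LINC00511 and MAPT-AS1, the latter with 7 and 10 fragments in an intron of MAPT. The MAPT-AS1 summit was 1.05 kb from a MAPT start, and the MAPT promoter also held a gained region. Another 4 of the 21 lncRNAs, among them GATA3-AS1, were gained but touched a coding promoter, and 15 had no peak. Of 16 cell cycle and p53 lncRNAs, only DINOL was at a member, with 26 and 14 fragments in an exon of the CDK inhibitor gene CDKN1A, 1.73 kb from its start. That summit was at −1937 bp from the DINOL start, and the CDKN1A promoter also held a gained region. Of the others, 4 had a peak in all 4 libraries, among them TMPO-AS1 and TP53TG1, 3 were gained but touched a coding promoter, 2 had a peak in both abemaciclib and 1 DMSO library and 6 had none.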

How the data were processed

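Rb and IgG2a CUT&RUN libraries were mapped to hg38 with Bowtie2 2.3.4.1, and peaks were called per library with MACS2 2.2.7.1, with DiffBind and deepTools 3.5.0 also named in the submitters' processing notes. The 5 lists deposited by the authors give a fold enrichment ratio at each summit, −log10 p- and q-values and an integer score, the last not used here. Every listed peak passed the authors' q threshold of 0.05. Fold is (pileup + 1) / (background + 1), so the whole-number pileup and the local background were solved from fold and −log10 p with a tolerance of 0.002 in −log10 p. This resolved 98.0% to 100% of peaks and was tested on simulated data. Total reads were not used here, and intervals therefore cover counting error of regions only. The authors removed reads in blacklisted regions and on mitochondrial DNA, kept duplicate reads and gave the peak caller matched IgG controls, and whether it dropped duplicates is not given in the sources used here.

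Promoters came from GENCODE 44 and sequence from GRCh38. Patterns were searched in 200 bp and CpG content in 500 bp around the summit of abemaciclib replicate 1. Shares were compared by two-sided Fisher's exact tests with Benjamini-Hochberg adjustment over 26 tests, and intervals are 95% Wilson intervals. No test between treatments was made, because peak presence chose the members. Copies were sought with blastn 2.17.0 (95% identity over 190 bp). Python 3.11.15, pandas 2.3.3, numpy 2.4.6, scipy 1.17.1 and pysam 0.24.0 were used. The members and gene lists were chosen with earlier results of these data known. Members were ranked by the worse of their ranks in the abemaciclib lists. The text names the 10 best, the 3 best further ones per gene class, the 5 best at least 10 kb from a coding start, 3 on each side of the threshold and every listed gene at a member. Small RNA families, microRNA genes and members with the E2F pattern outside this rule were named after their values were seen. A planned share of repeat sequence was not computed, because the reference marks no repeats. The summit sequences of some members are not reported here.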

Additional observations from a re-analysis of the deposited data

How the results depend on the processing

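Of 72 alternative values, 7 moved, 2 turned the direction and 63 did neither, where a test had to keep its call, the share of gained regions its 95% interval, and the number of members only to stay within 1.5-fold of 506. The number of members was 816 with the 5′ end of each gene only and 7 with the same number of strongest peaks in each Rb list, and these settings gave 9.48% and 3.85% of gained regions. The share was 5.25% at a q of at most 1e-05, 4.68% with a coding window of 5000 bp on each side and 6.46% without abemaciclib replicate 2. Leaving out each library in turn gave 511 to 738 members and 5.77% to 6.46% of gained regions. The CpG-island difference then ran from −20.2 to −15.9 points against coding promoters and from 25.6 to 33.7 against regions outside promoters, and the E2F difference from −2.49 to −0.408 and from −3.93 to 0.928. By Fisher's exact test, the reversed E2F values were 0.928 without abemaciclib replicate 1 (adjusted p = 0.773) and 0.71 without replicate 2 (adjusted p = 0.782), and the cause was not tested. No paired analysis was possible because the tests compare sets of regions by their sequence, and none compares the treatments. Depth limits what a missing DMSO peak shows, since the weakest members lie near the pileup that a DMSO call would need.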

Other observations

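Some members lay close together. With gaps of up to 100 kb, 51 groups held 122 of the 506 members. The same count was not made for other gained regions, so nothing particular to the members is read from it. Some groups belonged to the same gene, such as 2 members within 1.54 kb at ENSG00000280222. Besides the 5S RNA group, 5 members fell within 252 kb at chr16:2906977-3158769, among them the start of MMP25-AS1. On chromosome 1, which has 3598 non-coding genes, lay 75 members, or 14.8% of all. They were 8.32% of the 901 gained regions there, beside 5.88% over all chromosomes used. The share was higher on chromosomes 22 (9.95%), 7 (9.7%) and 15 (9.35%).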
